A study of Mus musculus with 172 samples.

Results

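The effect of losing OCT4 on the inner cell mass (ICM) of the mouse blastocyst was compared between the mid (E3.5) and the late (E4.5) stage. The measure described here is the interaction of genotype and stage, that is, the MUT minus WT/HET difference at E4.5 minus the same difference at E3.5, on the log2 scale. All 172 single ICM cells of the series entered it, summed into 19 embryos. The interaction was called, at an adjusted p under 0.05, in 896 of 16410 genes, or 5.46%. It was above 0 in 445 of them (2.71% of genes tested) and below 0 in 451 (2.75%).

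Embryos came from inter se matings of mice heterozygous for an Oct4 null allele, on mixed strain backgrounds. WT and HET embryos together formed the control. At E3.5 there were 7 control embryos (5 WT, 2 HET; 58 cells) and 4 MUT embryos (29 cells). At E4.5 there were 6 control embryos (2 WT, 4 HET; 66 cells) and 2 MUT embryos (19 cells). The outer trophectoderm (TE) was removed by immunosurgery, and the genotype was read from its lysate. Each embryo gave 4 to 13 cells, so an embryo is a sample of its ICM and not the whole of it. All E4.5 cells were on plate 1 and all E3.5 cells on plate 2. Stage and plate cannot be told apart, and a shift between E3.5 and E4.5 within 1 genotype is given without a test. The interaction sets MUT against control on the same plate at each stage. It also carries a change in the control, whose E4.5 cells were 37 epiblast (EPI) and 29 primitive endoderm (PrE) cells by the labels, while the MUT cells had no such label.

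OCT4, the product of Pou5f1, is a transcription factor of the ICM and of pluripotent stem cells. In the blastocyst the ICM separates into EPI, the founder of the fetus, and PrE, the founder of the yolk sac lining, while the TE gives rise to the placenta. Embryos without OCT4 form a blastocyst whose inner cells do not make either lineage and take on TE genes.

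Pou5f1 (ENSMUSG00000024406, chr17:35506018-35510772, GRCm38) checked the labels. At E3.5 it stood at 194 to 420.1 CPM (median 262) in control embryos and at 5.83, 3.55, 2.69 and 4.88 CPM in MUT embryos 10, 12, 17 and 19. In E4.5 controls it stood at 67.8 to 173 CPM (median 131), and MUT embryos 3 and 8 held 0 counts. No MUT embryo overlapped a control at either stage. Taking 3 counts over the group as the limit, Pou5f1 was at least 1233-fold lower in MUT at E4.5, and on the means it was 68.8-fold lower at E3.5. A count was found in 0 of 19 E4.5 MUT cells, which allows a share of cells with a count of up to 15.8% if cells are taken as independent, though they came from 2 embryos. Its interaction was -3.69 (SE 0.54, adjusted p = 0.000545), fitted against a group at 0, and it turned to 0.51 with cells weighted equally. That fit averaged the log2 CPM of single cells without the scaling of the main fit, so more than the weights differed.

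Counts summed per embryo ranged from 8117581 to 24589672. CPM here are scaled by the trimmed mean of M values (TMM), and they compare one gene between embryos, not genes with each other. The reads carry no molecular identifiers and were amplified by PCR, so limits from counts of 0 cover counting error only. The median count per cell, the median number of genes per cell and the share of multi-mapped reads were tested for an interaction over embryos by exact two-sided permutation within stages (9240 arrangements). Multi-mapped reads averaged 38.8% in control and 41.7% in MUT embryos at E3.5, and 23.3% and 22.2% at E4.5 (interaction -4.07 percentage points, p = 0.0979, adjusted over the 3 measures 0.294). For counts and genes per cell p was 0.550 and 0.695 (adjusted 0.695 for both). In sums of this kind, fewer cells that express a gene and less RNA of it per cell cannot be told apart.

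Called genes were sorted by their 4 group means, with no further test, since the sorting used the values tested. A gene whose difference at E4.5 was at least 2-fold and the larger of the 2 was put in 1 of 4 classes. It was kept on in MUT (159 genes) if MUT stood higher and the control's fall from E3.5 to E4.5 exceeded any rise in MUT, and gained late (99) otherwise. It was lost late (258) if MUT stood lower and its own fall from E3.5 to E4.5 exceeded any rise in control, and not gained in MUT (78) otherwise. These splits rest on shifts between stages within a genotype. Stage equals plate, so a plate effect could move genes between kept on and gained late, or between lost late and not gained. Reversed genes (166) differed at least 2-fold in opposite directions at the 2 stages. A further 57 had the larger difference at E3.5, 8 higher and 49 lower in MUT, and 79 met none of these definitions.

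**Figure D1:**
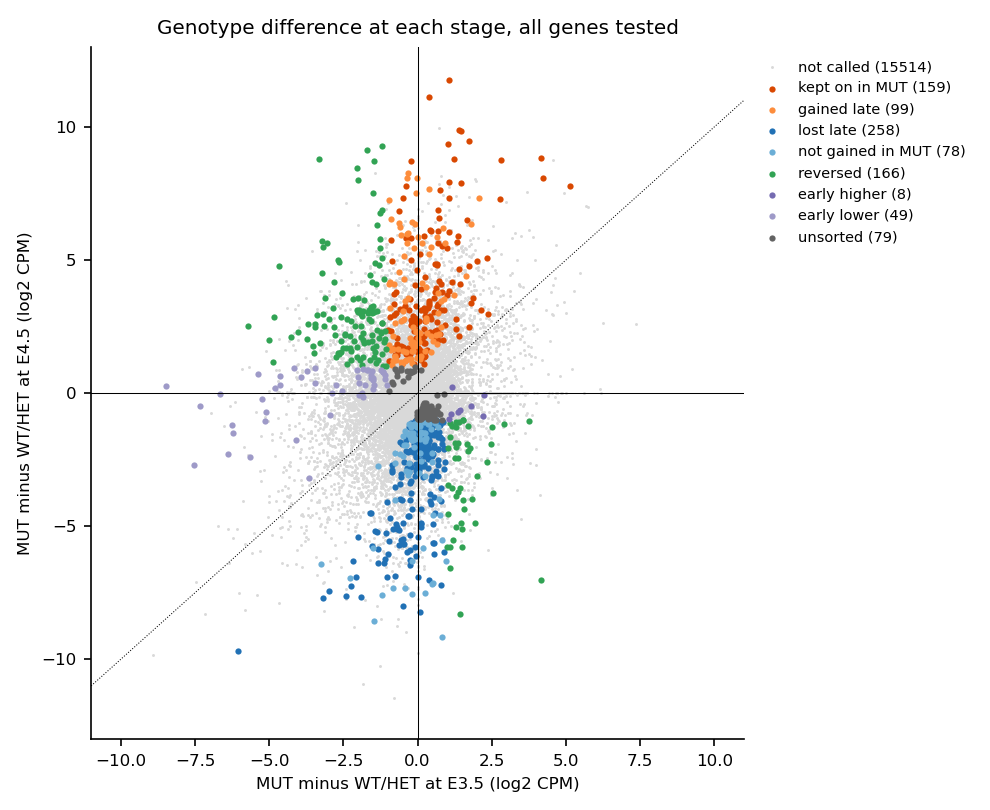
Each point is 1 of 16410 genes, with the MUT minus WT/HET difference of mean log2 CPM at E3.5 on the x axis and at E4.5 on the y axis; grey genes were not called, and colours mark the classes. Genes kept on or gained late have a positive and genes lost late or not gained a negative difference at E4.5, and their median differences at E3.5 lie between -0.16 and 0.25, while reversed genes lie in the upper left and lower right.

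The medians of the classes describe how they were built. Genes kept on in MUT had a median of 6.32 log2 CPM in E3.5 control and 6.49 in E3.5 MUT embryos, and of 2.92 in control and 6.52 in MUT embryos at E4.5. Genes lost late had medians of 6.15 and 6.26 at E3.5, and of 6.09 and 4.04 at E4.5. The reversed class was low throughout, and 62 of its 166 genes had 0 counts in a whole group, as had 186 of all 896. For such genes the fitted interaction depends on the prior count and is no bound.

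**Figure D2:**
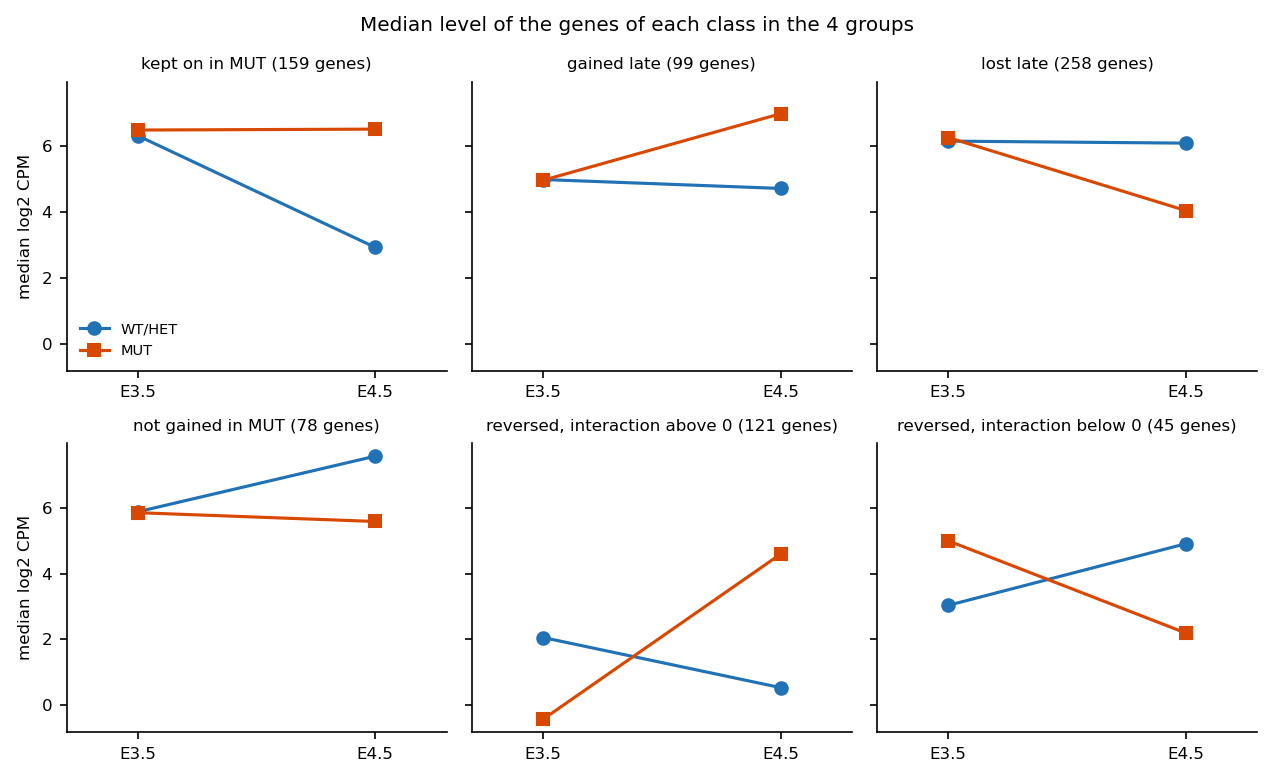
Median log2 CPM of the genes of a class in control (blue circles) and MUT embryos (orange squares) at E3.5 and E4.5, with reversed genes shown apart by the sign of the interaction. In the class kept on in MUT the control median was 2.92 at E4.5 and the MUT median 6.52; these values chose the classes and are a description.

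Tmem41b, kept on in MUT, had the smallest p of all genes tested. It codes for a lipid scramblase of the endoplasmic reticulum (ER) that is needed to build autophagosomes (ENSMUSG00000047554, chr7:109972187-109986929). At E3.5 it stood at 1695 to 2439.6 CPM (median 2236) in control embryos and at 3553, 2946, 3249.8 and 3395 CPM in the 4 MUT embryos. At E4.5 the control stood at 119 to 179 CPM (median 166) and the 2 MUT embryos at 2039.8 and 2783 CPM. MUT embryos were thus near the E3.5 level, while the highest E4.5 control embryo was far below the lowest E3.5 control. The MUT to control ratio of means went from 1.53 to 15.3 (log2 interaction 3.32, SE 0.21, adjusted p = 2.91e-08). Every one of the 19 E4.5 MUT cells held at least 155 CPM.

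Csf3r, the receptor of granulocyte colony-stimulating factor that signals through JAK kinases to STAT3 (ENSMUSG00000028859, chr4:126024550-126044440), was absent from the E4.5 control counts. At E3.5 it stood at 22.2 to 88.6 CPM (median 35.6) in control and at 46.1, 27, 27.2 and 23.3 CPM in MUT embryos, which overlapped. The E4.5 MUT embryos stood at 25.6 and 34.6 CPM, against 0 counts in all 6 controls, or at least 1185-fold higher (log2 interaction 8.31, SE 0.62, adjusted p = 4.73e-06). A count was found in 0 of 66 control cells, which allows a share of cells with a count of up to 4.55% if the cells of the 6 embryos are taken as independent, and in 8 of 19 MUT cells. The level in the E4.5 MUT embryos was thus carried by a part of their cells, 4 of 11 in embryo 3 and 4 of 8 in embryo 8. At E3.5 a count was found in 28 of 29 MUT and 56 of 58 control cells.

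Pramel4, a member of the Prame family of leucine-rich repeat proteins found in early embryos (ENSMUSG00000073724, chr4:144059126-144069327), showed a partial form of the pattern. It stood at 107 to 303 CPM (median 192) in E3.5 control and 790.3, 261, 250.17 and 213 CPM in E3.5 MUT embryos, with embryo 10 far above the others. At E4.5 the 66 control cells together held 1 count, and the MUT embryos stood at 14.6 and 55.3 CPM (log2 interaction 6.99, SE 0.61, adjusted p = 1.52e-06). MUT embryos were therefore lower than at E3.5, while the control was almost empty. Cells with 10 CPM or more numbered 7 of 19 in MUT and 0 of 66 in control. With cells weighted equally the Pramel4 call was lost.

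Ak4, an adenylate kinase of the mitochondrial matrix (ENSMUSG00000028527, chr4:101419277-101466995), stood at 415 to 525 CPM (median 490.4) and 551, 507, 412 and 369 CPM in E3.5 control and MUT embryos. At E4.5 the values were 19.1 to 44.2 CPM (median 28.4) and 210.4 and 199.8 CPM (log2 interaction 2.85, SE 0.29, adjusted p = 1.33e-05). Its MUT level at E4.5 lay between the levels of the E3.5 embryos and of the E4.5 controls. Against EPI cells alone the interaction was 2.98 (adjusted p = 0.0651) and against PrE cells alone 2.74 (adjusted p = 0.00843), and weighting EPI and PrE equally also ended the call.

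Btrc, the F-box protein by which an SCF ubiquitin ligase recognises beta-catenin and other targets (ENSMUSG00000025217, chr19:45363734-45530013), stood at 279 to 399.6 CPM (median 325) and 364, 372, 482 and 533 CPM at E3.5. At E4.5 it stood at 26.7 to 64 CPM (median 36.5) in control and 385 and 364 CPM in MUT embryos (log2 interaction 2.89, SE 0.31, adjusted p = 1.99e-05). Both MUT embryos were within the E3.5 control range. Btrc was the 1 called gene among 36 tested of the Wnt and beta-catenin list. Sat1, which acetylates spermidine and spermine for export, had a like profile, with 1309 to 2250.1 CPM (median 1849) and 2821, 1863, 2453 and 1909 CPM at E3.5 and 142 to 314 CPM (median 191) and 2007 and 2126 CPM at E4.5 (log2 interaction 2.97, SE 0.31, adjusted p = 1.87e-05). Perp, a p53 target of cell junctions, had 6 counts in all E4.5 control embryos together, against 44.7 and 117 CPM in MUT and 15.7 to 61.7 CPM (median 26.6) in E3.5 control embryos (log2 interaction 8.95, SE 1.02, adjusted p = 3.43e-05).

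**Figure D3:**
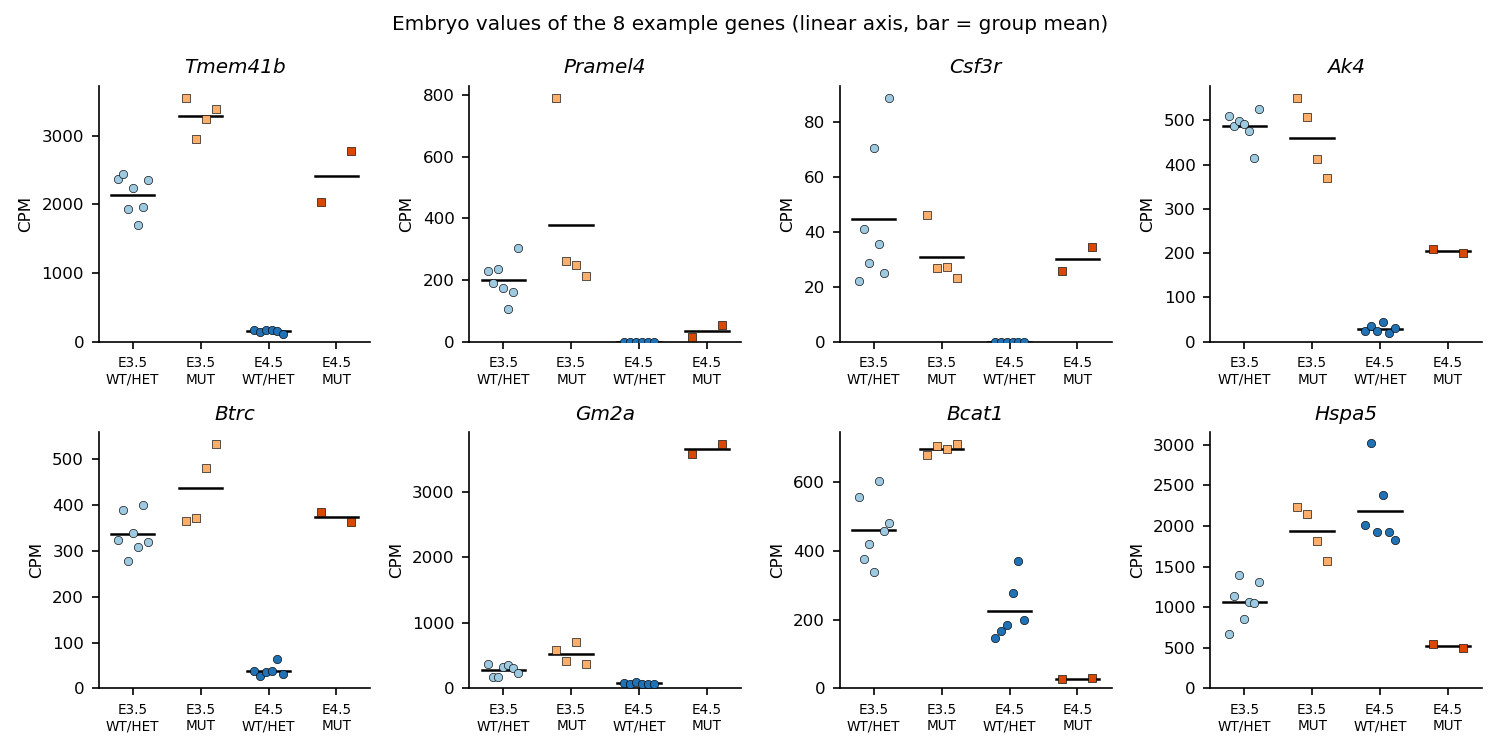
CPM of 8 genes in every embryo (linear axes from 0): circles are control, squares MUT, and bars the group means. Tmem41b, Csf3r, Ak4 and Btrc were near or below the E3.5 level in the 2 E4.5 MUT embryos and much lower in all 6 E4.5 controls, Gm2a stood above every other group, and Bcat1 and Hspa5 stood below every other group.

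Gene families of the preimplantation embryo formed the list that holds Pramel4. Of 17 tested members of the Prame, Zscan4, Trim43, Tdpoz, Dppa and related families, 5 were called above 0 and 0 below, with a median interaction of 2.27 against -0.07 over all genes tested. Pramel6, which promotes a naive state in stem cells, stood at 1170.4, 637, 576 and 966 CPM in E3.5 and 162 and 248 CPM in E4.5 MUT embryos, and at 229 to 881 CPM (median 378) and 0 to 2.01 CPM (median 0.0299) in control embryos (log2 interaction 7.51, SE 1.08, adjusted p = 0.000418). Dppa1, an early embryonic transcript, held 6 counts in the E4.5 controls and stood at 398 and 979 CPM in MUT (log2 interaction 10.64, SE 1.84, adjusted p = 0.00201). In E3.5 MUT embryos Dppa1 ranged widely, at 10.8, 96.8, 127 and 0.837 CPM. Pramel5 and Trim43c were also called, at 5.52 (SE 1.18, adjusted p = 0.015) and 3.57 (SE 0.98, adjusted p = 0.0384). Members of these families are near copies of one another, and read pairs with more than 1 alignment are in no count, so their levels are uncertain. The Dppa1 call was lost with WT embryos as the only controls, and without embryo 8 the list had 3 calls and a median of 0.80. With cells weighted equally it had 5 calls above 0 and 1 below, and its median turned to -0.11.

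The autophagy list held 42 tested genes, of which 6 were called above 0 and 0 below, all 6 in the class kept on in MUT. Besides Tmem41b they were the ATG8 proteins Map1lc3b and Gabarapl2, which coat the autophagosome membrane, the kinase Ulk1, its partner Atg13 and the ATG8 protease Atg4b. Gabarapl2 stood at 2804 to 3500.4 CPM (median 2888) and 3172, 3292, 2904 and 4359 CPM in E3.5 control and MUT embryos. At E4.5 it stood at 216 to 461 CPM (median 319) in control and 1061 and 1642 CPM in MUT embryos (log2 interaction 1.95, SE 0.28, adjusted p = 0.000383). Map1lc3b stood at 423 to 907 CPM (median 559) and 2377 and 2604 CPM at E4.5, against 1452 to 1980.5 CPM (median 1832) and 1858, 2213, 2171.2 and 1856 CPM at E3.5 (log2 interaction 1.87, SE 0.26, adjusted p = 0.000295). The interaction was 2.07 (SE 0.35, adjusted p = 0.00179) for Ulk1, 2.22 (SE 0.49, adjusted p = 0.0113) for Atg13 and 2.17 (SE 0.54, adjusted p = 0.0237) for Atg4b. Tmem41b, Gabarapl2 and Map1lc3b averaged 2411, 1351 and 2490 CPM in E4.5 MUT embryos, most of the list's summed CPM there. Summed over the list, E4.5 control embryos reached 2444 to 3524 CPM and E4.5 MUT embryos 8615 to 10144, where E3.5 control embryos had 9511 to 11617 and E3.5 MUT embryos 12453 to 14334. The MUT sums were thus above every control at both stages, and lower at E4.5 than at E3.5. The list median was 0.72, and 36 of 42 members were not called, among them Tfeb, the master regulator of lysosomal genes, at 1.44 (SE 0.82, adjusted p = 0.336).

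Genes gained late were led by Gm2a, which codes for an activator protein of ganglioside breakdown in the lysosome (ENSMUSG00000000594, chr11:55098115-55113029). Its values were 167 to 371 CPM (median 303) in E3.5 control and 579, 418, 709 and 378 CPM in E3.5 MUT embryos. In E4.5 embryos they were 58.6 to 99.8 CPM (median 70.4) and 3578 and 3725 CPM (log2 interaction 4.72, SE 0.37, adjusted p = 3.71e-07). The ratio of means went from 1.87 to 49.5. All 19 MUT cells held at least 1337 CPM of Gm2a, and no E4.5 control cell held more than 251.

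Psap, the precursor of the saposins that activate sphingolipid hydrolases, had the second smallest p of the lysosome list. It stood at 994 to 1889 CPM (median 1552) and 1504, 3409.6, 2356 and 2034 CPM at E3.5, and at 107 to 321 CPM (median 212) and 5877 and 4819 CPM at E4.5 (log2 interaction 4.05, SE 0.44, adjusted p = 2.23e-05). By the class rule Psap was kept on in MUT, since from E3.5 to E4.5 the log2 means differed by -2.92 in control and 1.26 in MUT embryos. Cd63, a tetraspanin of late endosomes, stood at 694 to 1187 CPM (median 776) in E4.5 control and 4535 and 4651 CPM in E4.5 MUT embryos (log2 interaction 1.67, SE 0.23, adjusted p = 0.000289).

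Over the lysosome list, 13 of 51 tested genes were called above 0 and 1 below, with a median of 0.80. The hydrolases Fuca1, Smpd1, Ctsa, Glb1, Ctsd and Gla and the membrane proteins Lamp1 and Lamp2 were among the 13. Fuca1, which removes fucose, averaged 40.2 CPM in E4.5 control and 249.96 in MUT embryos, with an interaction of 3.15 (SE 0.61, adjusted p = 0.00437). Smpd1, acid sphingomyelinase, averaged 11.2 and 159 CPM, with an interaction of 2.60 (SE 0.55, adjusted p = 0.0085). Lamp1 had the smallest of the 13, at 0.73 (SE 0.21, adjusted p = 0.046). Ctsz, a cathepsin, went the other way at -3.06 (SE 0.65, adjusted p = 0.00899). Gm2a, Psap and Cd63 averaged 3652, 5348 and 4593 CPM in E4.5 MUT embryos, against 73.7, 203 and 847 in E4.5 control. These 3 genes were thus a large part of the list's summed CPM in MUT, while 37 of 51 members were not called. The summed list stood at 7703 to 9625 CPM in E3.5 control, 12745 to 14082 in E3.5 MUT, 5654 to 9901 in E4.5 control and 27336 to 28204 in E4.5 MUT embryos. The 2 E4.5 MUT embryos were above every other embryo, and the list had 7 calls above 0 without embryo 8 and 9 without embryo 3.

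Promoters of these lysosomal genes are shown because the palindromic E-box CACGTG is the core of the element that TFEB and its relatives bind. The 250 bases before the RefSeq start (GRCm38.p6) are written 5' to 3' with each E-box in capitals, for Gla (chrX:134601006-134601255, minus strand), Ctsd (chr7:142387828-142388077, minus strand) and Lamp1 (chr8:13158911-13159160, plus strand).
Gla: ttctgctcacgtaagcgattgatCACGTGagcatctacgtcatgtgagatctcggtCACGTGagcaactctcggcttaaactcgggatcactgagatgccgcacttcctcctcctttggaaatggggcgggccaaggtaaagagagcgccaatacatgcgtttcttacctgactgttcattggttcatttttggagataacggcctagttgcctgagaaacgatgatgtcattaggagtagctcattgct
Ctsd: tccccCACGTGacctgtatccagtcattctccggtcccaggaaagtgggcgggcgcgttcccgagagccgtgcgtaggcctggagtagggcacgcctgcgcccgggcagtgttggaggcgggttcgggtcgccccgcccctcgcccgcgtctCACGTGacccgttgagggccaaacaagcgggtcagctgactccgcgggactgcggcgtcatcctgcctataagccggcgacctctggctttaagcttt
Lamp1: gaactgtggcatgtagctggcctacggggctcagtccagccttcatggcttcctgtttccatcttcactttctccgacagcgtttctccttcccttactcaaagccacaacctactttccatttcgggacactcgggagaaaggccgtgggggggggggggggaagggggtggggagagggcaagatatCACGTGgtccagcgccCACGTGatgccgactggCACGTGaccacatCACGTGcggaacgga
Lamp1 held 4 matches and Gla and Ctsd 2 each, the most among the called lysosomal genes. In windows of 300 bases, 250 before and 50 after the start, 5 of the 13 called lysosomal genes with a RefSeq window held the E-box, the other 2 being Ctsa and Glb1. Gm2a, Psap and Cd63 were not among the 5. Over the whole list 40 of 51 genes had a window, under 80%, and 13 of these 40 (32.5%) held it. Of all 27025 genes with a window 8.09% held it, and of the tested genes with a window 11.4%. The 6 called autophagy genes all had a window and none held it.

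The other leading genes gained late belong to no list. Syngr1, a synaptogyrin of small vesicles, stood at 23.4 to 52.1 CPM (median 40.5) in E4.5 control and 612 and 406 CPM in MUT embryos (log2 interaction 3.04, SE 0.35, adjusted p = 4.15e-05). Slc38a4, a neutral amino acid transporter abundant in placenta, stood at 32.6 to 91.3 CPM (median 47.1) and 676 and 547 CPM (log2 interaction 3.71, SE 0.47, adjusted p = 0.000105). Pdcd4, which binds the helicase eIF4A and restrains translation, stood at 7.42 to 22.8 CPM (median 15.7) and 338 and 232 CPM (log2 interaction 4.60, SE 0.59, adjusted p = 0.000131). In E3.5 MUT embryos Pdcd4 was at 8.82, 21.1, 22.2 and 11.4 CPM, within or near the control range of 9.96 to 30.7 CPM (median 21.1). For all 3 both E4.5 MUT embryos stood above every control. MUT and control embryos did not overlap at E4.5 in 97 of 99 genes gained late and in 21.8% of all genes tested, but the class rule fixes that share in part.

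TE genes were called above 0 in 9 of 30 tested members and below in 0, with a list median of 3.01. Leaving out embryo 3 or embryo 8 gave 5 of 30, and controls of WT embryos alone gave 6. Lcp1, an actin bundler of the TE, stood at 23 to 56.3 CPM (median 43.5) and 38.9, 102, 91.7 and 27.9 CPM at E3.5. At E4.5 it stood at 5.58 to 37.7 CPM (median 18.7) and 725 and 715 CPM (log2 interaction 4.58, SE 0.70, adjusted p = 0.000664), with a count in 18 of 19 MUT cells. The keratins Krt8 and Krt18, which form TE intermediate filaments, averaged 55.9 and 24.6 CPM in E4.5 control and 1899 and 1537 in MUT embryos, with interactions of 5.10 (SE 1.06, adjusted p = 0.0081) and 4.41 (SE 1.24, adjusted p = 0.0416). The tight junction claudins differed between themselves. Cldn4 averaged 67.3 and 197 CPM in E3.5 control and MUT embryos, 42.1 and 873 at E4.5, and was gained late (log2 interaction 2.82, SE 0.62, adjusted p = 0.0113). Cldn7 stood at 184 to 336 CPM (median 245) and 127, 272, 236 and 257 CPM at E3.5, and at 24.3 to 91.9 CPM (median 46.8) and 213 and 467 CPM at E4.5, and was kept on (log2 interaction 2.91, SE 0.48, adjusted p = 0.00152).

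Hand1, a transcription factor of trophoblast, was already higher in MUT at E3.5. It stood at 1.64 to 27.6 CPM (median 8.41) in control and 194, 125, 119.7 and 198 CPM in MUT embryos then, and at 81.2 and 69 CPM in E4.5 MUT embryos, where the controls held 6 counts. The interaction was 5.03 (SE 0.92, adjusted p = 0.00306), although both MUT embryos were lower at E4.5 than every E3.5 MUT embryo. A count was found in 27 of 29 E3.5 and 7 of 19 E4.5 MUT cells, and with cells weighted equally the interaction turned to -2.06. Gata3, a TE factor, was high in MUT at both stages, with 169 and 213 CPM against 9.97 and 2.69, and was not called (log2 interaction 2.20, SE 1.47, adjusted p = 0.428). Cdx2 (log2 interaction 5.52, SE 2.56, adjusted p = 0.23) and Eomes (log2 interaction 0.17, SE 0.80, adjusted p = 1), the TE determinants, were not called.

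Since TE was removed before cells were picked, TE markers in an ICM cell can be its own or those of a TE cell left behind. The summed TE list stood at 971 to 1891 CPM in E4.5 control and 10933 to 11828 in E4.5 MUT embryos, and at 1153 to 2549.5 and 1867 to 3388 at E3.5. At E4.5 the lysosome and autophagy sums were likewise higher in MUT than in every control embryo, while the ER and ATF4 sums were lower. The part of TE genes in these differences was not tested. Elf5 was at 0 counts in E4.5 control embryos and Cdx2 averaged 10.8 CPM in E4.5 MUT embryos. Each value is given without the other genotype and is no contrast.

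**Figure D4:**
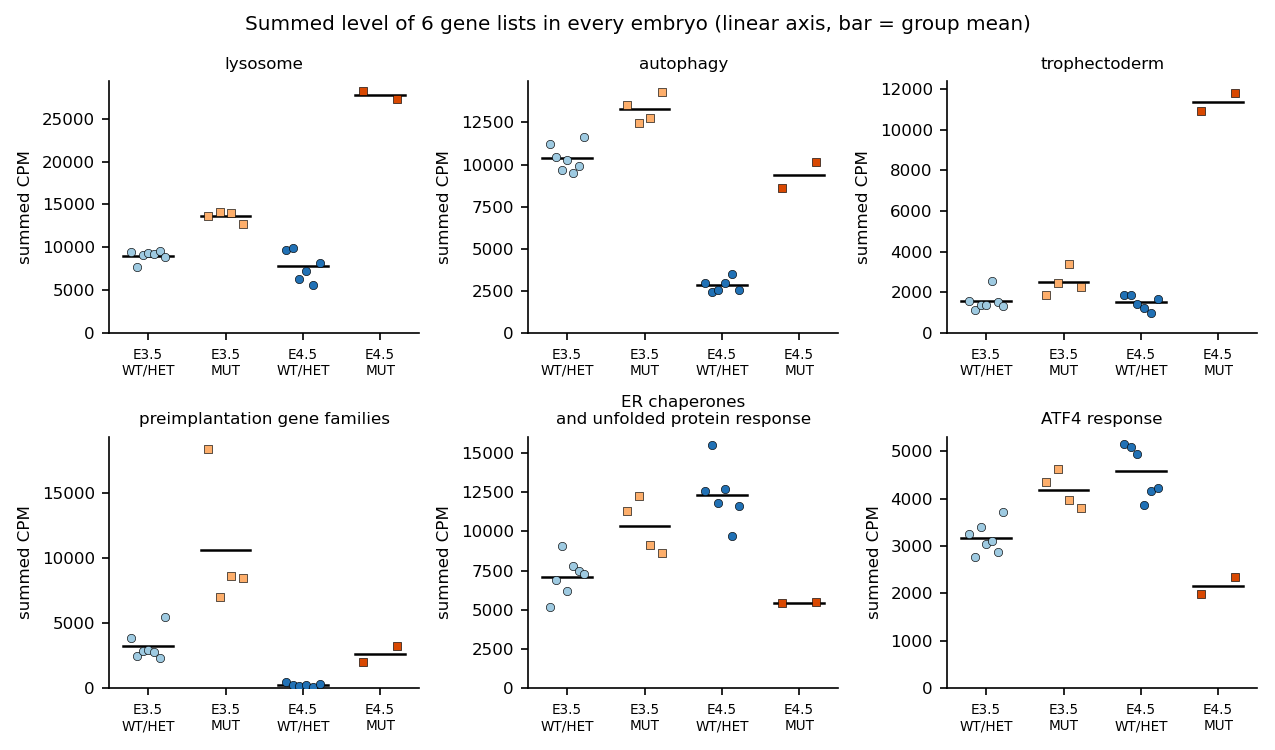
Summed CPM of 6 gene lists in every embryo (linear axes from 0): circles are control, squares MUT, and bars the group means. The E4.5 MUT embryos stand at 27336 and 28204 for the lysosome list and at 10933 and 11828 for the trophectoderm list, above all other embryos, and below all E4.5 control embryos for the ER chaperone and ATF4 lists.

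Genes lost late were led by Bcat1 and Hspa5. Bcat1, the cytosolic aminotransferase of branched-chain amino acids (ENSMUSG00000030268, chr6:144993835-145076184), stood at 338 to 602 CPM (median 458) in E3.5 control and higher, at 679, 703, 697 and 709.7 CPM, in every E3.5 MUT embryo. At E4.5 it stood at 147 to 369.7 CPM (median 192) in control and 25.9 and 29.3 CPM in MUT embryos (log2 interaction -3.61, SE 0.39, adjusted p = 1.99e-05). The difference thus changed sign, but at E3.5 it was 0.62 on the log2 scale, under the 2-fold set for reversed genes. Bcat1 marked EPI in the control, with a count in 37 of 37 EPI and 15 of 29 PrE cells, and in 6 of 19 MUT cells. Against EPI alone the interaction was -4.26 (adjusted p = 3.74e-08), and against PrE alone it was not called, at -0.98 (adjusted p = 0.139).

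Hspa5, the chaperone BiP that folds proteins in the ER and holds its stress sensors inactive (ENSMUSG00000026864, chr2:34771970-34777547), had a like change of sign. It stood at 672 to 1392 CPM (median 1065) in control and 2236, 2144, 1819.8 and 1572 CPM in MUT embryos at E3.5, without overlap. At E4.5 it stood at 1823 to 3026 CPM (median 1972) and 549 and 492 CPM (log2 interaction -2.93, SE 0.32, adjusted p = 1.99e-05). On the means MUT was 1.82-fold higher at E3.5 and 4.2-fold lower at E4.5. PrE cells, which secrete much protein, held a median of 3974 CPM and EPI cells of 1137. The Hspa5 call held against EPI alone, at -1.78 (adjusted p = 0.0102), and against PrE alone, at -3.66 (adjusted p = 1.11e-06).

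Of 30 tested genes in the list of ER chaperones and the unfolded protein response, 8 were called below 0 and 0 above, with a median of -1.56. Hsp90b1, the ER form of HSP90, stood at 429 to 877 CPM (median 775) and 1325, 1438, 907 and 843 CPM at E3.5 and at 691 to 1372 CPM (median 1106) and 232 and 141 CPM at E4.5 (log2 interaction -3.18, SE 0.39, adjusted p = 9.4e-05). Dnajb11, a co-chaperone of BiP, stood at 239 to 447 CPM (median 323) and 107 and 94.1 CPM at E4.5 (log2 interaction -2.44, SE 0.32, adjusted p = 0.000154). Manf, a secreted protein of the stressed ER, reversed, from 80.4 to 210.3 CPM (median 135) and 440.2, 355, 261 and 100.4 CPM at E3.5 to 235 to 502 CPM (median 300) and 20 and 45.1 CPM at E4.5 (log2 interaction -4.53, SE 0.65, adjusted p = 0.000418). The disulfide isomerases Pdia3 (log2 interaction -1.51, SE 0.27, adjusted p = 0.00275) and Pdia4 (log2 interaction -2.47, SE 0.53, adjusted p = 0.00924), the chaperone Hyou1 (log2 interaction -2.95, SE 0.66, adjusted p = 0.0122) and the factor Xbp1 (log2 interaction -1.60, SE 0.41, adjusted p = 0.0263) were the other four. In each of the 8 both E4.5 MUT embryos stood below all 6 controls. MUT and control embryos were apart at E4.5 in 21.8% of all genes tested and in 749 of the 896 called. The 8 were chosen by their calls, so this adds little to them. Against EPI alone 3 of 30 were called and against PrE alone 15, and the Dnajb11 call was lost against EPI alone.

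The promoters of Hspa5 (chr2:34771840-34772089, plus strand) and Hsp90b1 (chr10:86705445-86705694, minus strand) are shown because both carry the ER stress element, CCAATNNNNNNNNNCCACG, at which ATF6 and XBP1 act. They are the 250 bases before the RefSeq start (GRCm38.p6), 5' to 3', with the letters of the element in capitals.
Hspa5: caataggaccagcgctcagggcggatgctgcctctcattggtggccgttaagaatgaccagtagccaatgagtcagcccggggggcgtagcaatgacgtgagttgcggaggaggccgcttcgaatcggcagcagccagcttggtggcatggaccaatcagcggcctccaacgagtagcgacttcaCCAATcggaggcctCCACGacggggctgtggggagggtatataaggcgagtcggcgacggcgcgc
Hsp90b1: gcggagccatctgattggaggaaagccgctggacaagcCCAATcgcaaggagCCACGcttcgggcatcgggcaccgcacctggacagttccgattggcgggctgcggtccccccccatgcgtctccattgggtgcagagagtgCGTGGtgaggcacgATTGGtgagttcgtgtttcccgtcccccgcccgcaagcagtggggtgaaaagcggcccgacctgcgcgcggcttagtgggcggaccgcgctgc
The element begins 65 bases before the start in Hspa5, and in Hsp90b1 at 212 and, on the other strand, at 107. Both strands were searched. Of 25 list members with a window 9 held it, 2 of them called, and of all 27025 genes with a window 0.137% held it.

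Genes of the ATF4 response, which supply and charge amino acids, were called below 0 in 9 of 30 and above in 0, with a median of -1.44. Besides Bcat1 they comprised the serine pathway enzymes Psat1 and Phgdh, the mitochondrial folate enzyme Mthfd2, asparagine synthetase Asns, the transporter chain Slc3a2 and the tRNA synthetases Aars, Sars and Tars. Psat1 stood at 373 to 644 CPM (median 426) and 1031, 507, 689 and 644 CPM at E3.5, and at 180.3 to 376 CPM (median 289.9) and 100.3 and 95.9 CPM at E4.5 (log2 interaction -2.21, SE 0.39, adjusted p = 0.00225). Slc3a2 reversed, at 97 to 164 CPM (median 131) and 389.6, 376, 263 and 145 CPM, then 477 to 675 CPM (median 577) and 189.6 and 365 CPM (log2 interaction -2.23, SE 0.39, adjusted p = 0.00235). Asns averaged 366 CPM in E4.5 control and 44.7 in MUT embryos (log2 interaction -2.90, SE 0.67, adjusted p = 0.015). Atf4 itself was not called (log2 interaction -0.80, SE 0.37, adjusted p = 0.232), nor was its target Ddit3 (log2 interaction -2.73, SE 1.11, adjusted p = 0.17). With WT embryos as the only controls 3 of 29 list members were called, without embryo 3 it was 4 of 30 and without embryo 8 it was 5 of 30.

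In 2 further genes lost late the E4.5 MUT embryos were almost empty of counts. Abhd10, a mitochondrial thioesterase, had 0 counts in both and 21.7 to 51.1 CPM (median 40.6) in control, at least 387-fold more (log2 interaction -7.92, SE 0.87, adjusted p = 3.43e-05). In E3.5 MUT embryos it stood at 5.83, 30.3, 15.3 and 45.7 CPM. Alg12, a mannosyltransferase of the ER that builds N-glycans, had 2 counts in both E4.5 MUT embryos together, against 4.6 to 67.2 CPM (median 34.7) in control (log2 interaction -7.76, SE 0.96, adjusted p = 8.72e-05). The Abhd10 call was lost with cells weighted equally.

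Genes not gained in MUT were higher in the E4.5 than in the E3.5 control, and less so or not in MUT. Dok2, an adaptor of tyrosine kinases, held 1 count in the E4.5 MUT embryos and stood at 63.3 to 192 CPM (median 83.1) in their controls, with 0.36 to 4.35 CPM (median 2.62) in E3.5 control embryos (log2 interaction -9.81, SE 1.43, adjusted p = 0.000456). G3bp1, the core of stress granules, stood at 272 to 353.98 CPM (median 302) and 199, 340.1, 301 and 333 CPM at E3.5 and at 500.5 to 669.9 CPM (median 582) and 173 and 180.3 CPM at E4.5 (log2 interaction -1.65, SE 0.24, adjusted p = 0.000482). Actl6a, an actin-like subunit of BAF chromatin remodellers, stood at 232 to 474 CPM (median 419) and 66.8 and 57.2 CPM at E4.5 (log2 interaction -2.36, SE 0.38, adjusted p = 0.00105). Values for Fkbp9, a prolyl isomerase of the ER, were 162 to 349.8 CPM (median 202) and 39.8 and 53.6 CPM (log2 interaction -2.47, SE 0.42, adjusted p = 0.00178), and the call was lost against EPI alone. Ddx39b, a helicase of mRNA splicing and export, stood at 310.4 to 426 CPM (median 377) and 94.8 and 98 CPM (log2 interaction -1.53, SE 0.27, adjusted p = 0.00235).

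PrE genes, which mark the second lineage of the E4.5 control, were called below 0 in 8 of 24 tested and above in 0, with a median of -3.12. Amn, part of the vitamin B12 receptor of the visceral endoderm, stood at 68.5 to 517 CPM (median 289) in control and 4.54 and 0 CPM in MUT embryos at E4.5 (log2 interaction -9.14, SE 1.71, adjusted p = 0.00356). Foxq1, a forkhead factor, had 0 counts in E4.5 MUT and 1.55 to 48.4 CPM (median 13.5) in control embryos (log2 interaction -8.91, SE 1.81, adjusted p = 0.00757). The collagen prolyl hydroxylase P4ha1 stood at 207 to 383 CPM (median 238) and 51.7 and 111 CPM (log2 interaction -1.96, SE 0.42, adjusted p = 0.00962). The others were the factor Gata4, the adaptor Dab2, the collagen chaperone Serpinh1 and the collagens Col4a1 and Col4a2. In E3.5 MUT embryos Dab2 averaged 292 CPM against 46 in control, and Col4a1 stood at 70.3, 74.7, 69.9 and 80.7 CPM against 7.19 to 25.8 CPM (median 18.1). The calls changed with the control cells used. Against EPI alone 2 of 23 list members were called above 0 and 0 below, with Col4a1 at 3.07 (adjusted p = 0.105) and P4ha1 at 0.53 (adjusted p = 0.626), and against PrE alone 10 of 24 below and 0 above. No call of the list held with WT embryos as the only controls, and without embryo 3 it had 1.

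Late epiblast genes had 2 of 18 called, both below 0. Tdh, threonine dehydrogenase, stood at 52.3 to 177 CPM (median 116) and 177, 36.4, 83.8 and 26.4 CPM at E3.5, and at 186 to 360.1 CPM (median 275) and 13.9 and 3.97 CPM at E4.5 (log2 interaction -4.49, SE 0.83, adjusted p = 0.00327), and was not called against PrE alone. Etv4, an effector of FGF signalling, was at 0 counts in E3.5 control embryos and at 6.96 to 24.6 CPM (median 12.2) in E4.5 control embryos, with 0.224 and 0 CPM in MUT (log2 interaction -5.97, SE 1.501, adjusted p = 0.0355). Its call was lost without MUT embryo 8 or 17, control embryo 2, or the filter on low counts, among others.

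In glycolysis, 4 of 23 tested genes were called below 0 and 1 above. The payoff enzymes Pgk1 and Pgam1 stood at 149.7 to 263 CPM (median 196) and 145 to 227 CPM (median 206) in E4.5 control embryos, and at 71.9 and 81.5 CPM and 67.3 and 70.2 CPM in MUT, with interactions of -1.86 (SE 0.38, adjusted p = 0.00751) and -1.69 (SE 0.36, adjusted p = 0.00899). Pfkl and Pfkp, phosphofructokinase subunits, followed at -1.91 (SE 0.51, adjusted p = 0.0323) and -4.45 (SE 1.17, adjusted p = 0.0315). Both groups were higher at E4.5 than at E3.5 for Pgk1, which stood at 11.1 to 20.3 CPM (median 14.6) in control and 23.5, 18.6, 13.9 and 29.7 CPM in MUT embryos at E3.5. The glucose transporter Slc2a1 reversed. At E3.5 it stood at 49.4 to 148 CPM (median 74.9) in control and lower, at 5.98, 32.3, 30.3 and 46 CPM, in MUT embryos, and at E4.5 at 234 to 486 CPM (median 309.6) and higher, at 1068 and 1459.9 CPM (log2 interaction 3.57, SE 0.63, adjusted p = 0.00229). The groups did not overlap at either stage. Without embryo 3 the Pgk1 and Pgam1 calls were lost, and that of Pgk1 also against EPI alone, with WT controls only and with cells weighted equally.

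Of the reversed genes, 121 went from lower to higher in MUT, with medians of -1.91 and 2.59 at E3.5 and E4.5, and 45 from higher to lower, with 1.42 and -2.59. Pdpn, podoplanin, a membrane mucin, stood at 96.6 to 266 CPM (median 153) and 93.8, 80.5, 55.5 and 54.9 CPM at E3.5, and at 56.5 to 133 CPM (median 77.6) and 509 and 478 CPM at E4.5 (log2 interaction 3.81, SE 0.43, adjusted p = 3.43e-05). No MUT embryo overlapped a control at either stage. Khdc3, of the maternal subcortical complex of egg and early embryo, changed likewise, from 636 to 1098 CPM (median 743) and 172, 460.3, 309 and 261 CPM to 206 to 722 CPM (median 317) and 1098 and 1022 CPM (log2 interaction 2.99, SE 0.46, adjusted p = 0.000687). Slc24a5, a sodium, calcium and potassium exchanger, stood at 27.8 to 169 CPM (median 68) and 2.56, 33.2, 30.4 and 28.9 CPM, and then at 0 to 3.3 CPM (median 0.823) and 146 and 250.37 CPM (log2 interaction 9.0, SE 1.21, adjusted p = 0.00021). Gpc4, a heparan sulfate glypican, went the other way, from 3.43 to 9.75 CPM (median 4.1) and 109.9, 54.3, 62.8 and 49.2 CPM to 39.5 to 122 CPM (median 89.2) and 20.8 and 66.4 CPM (log2 interaction -4.65, SE 0.71, adjusted p = 0.000664), and its groups overlapped at E4.5.

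Genes of JAK/STAT3 signalling were called above 0 in 4 of 30 and below in 0. After Csf3r came the kinase Jak3, at 4.34 to 24.4 CPM (median 12.9) and 0, 1.11, 0.756 and 0 CPM at E3.5 and 2.99 to 16.1 CPM (median 14.2) and 46.5 and 35.7 CPM at E4.5 (log2 interaction 6.29, SE 1.13, adjusted p = 0.00262). The growth regulator Myc stood at 11.1 to 112 CPM (median 40.4) and 5.98, 9.09, 1.93 and 7.67 CPM, and then at 14.9 to 50.9 CPM (median 23) and 52.6 and 88.6 CPM (log2 interaction 4.35, SE 0.88, adjusted p = 0.00676). Both were lower in every E3.5 MUT embryo and higher in both E4.5 MUT embryos than in every control of the stage. Of the 896 called genes, groups were apart at E3.5 in 150 and at E4.5 in 749, and at E4.5 in 21.8% of all genes tested. No share over all genes tested is given for E3.5, so separation at that stage, here and for other genes, has no background beside it. Bcl3 was called at 4.52 (SE 1.23, adjusted p = 0.0363). Stat3 (log2 interaction 0.11, SE 0.59, adjusted p = 1) and its feedback inhibitor Socs3 (log2 interaction 3.52, SE 1.64, adjusted p = 0.232) were not called. The Jak3 call was lost with WT embryos as the only controls, the Myc call with cells weighted equally.

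In a smaller group the genotype difference was at E3.5. Sh3bp4, an adaptor of endocytosis, stood at 22.4 to 41.6 CPM (median 32.1) in E3.5 control embryos, with 0 counts in 3 of 4 MUT embryos and 0.370 CPM in the other, but at 16 to 72.3 CPM (median 21.3) and 30.2 and 11 CPM at E4.5 (log2 interaction 6.495, SE 0.87, adjusted p = 0.00021). Ildr1, of tricellular junctions, had 0 counts in E3.5 MUT against 20.9 to 78.4 CPM (median 57.7), at least 722-fold more, and stood at 2.06 to 73.1 CPM (median 16.3) and 10.3 and 33.4 CPM at E4.5 (log2 interaction 8.43, SE 1.16, adjusted p = 0.000532). Lap3, leucine aminopeptidase, stood at 169 to 346 CPM (median 249.85) and 21.1, 75.5, 49.3 and 43.9 CPM, then at 159 to 344 CPM (median 241) and 219 and 291 CPM (log2 interaction 2.52, SE 0.42, adjusted p = 0.00164). Ostf1, an SH3 protein, stood at 147 to 198 CPM (median 179) and 41, 43.6, 61.7 and 31.9 CPM, then at 104 to 327 CPM (median 194) and 337 and 234 CPM (log2 interaction 2.49, SE 0.40, adjusted p = 0.00121). For these 4 the MUT and control groups overlapped at E4.5. Cd68, a lysosomal glycoprotein of macrophages, had 1 count in all E3.5 MUT embryos, against 0.987 to 10.4 CPM (median 2.46) in control. At E4.5 Cd68 stood at 9.17 to 42 CPM (median 13.9) in control and 61.7 and 14 CPM in MUT embryos, which overlapped (log2 interaction 5.60, SE 0.98, adjusted p = 0.00217). It was the 1 called of 5 tested blood and uterine stroma markers, whose sum was 44.5 to 71.8 CPM in E4.5 MUT and 53 to 172 in E4.5 control embryos. The Sh3bp4 and Cd68 calls were lost with cells weighted equally, and the Lap3 call with WT embryos as the only controls.

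The 8 genes with the larger difference higher at E3.5 included Cenpa, the histone of centromeres, at 106 to 212 CPM (median 148) and 454, 393, 398 and 312 CPM, then 180.4 to 296 CPM (median 235) and 216 and 94 CPM (log2 interaction -1.96, SE 0.37, adjusted p = 0.00393). Eif1b, a start codon selection factor, stood at 128, 130.2, 147 and 100.3 CPM against 43.9 to 72.5 CPM (median 58.6) at E3.5 and at 32 and 49.8 CPM against 58.3 to 81.3 CPM (median 73.5) at E4.5 (log2 interaction -1.89, SE 0.32, adjusted p = 0.0016). Tomm5, a subunit of the mitochondrial import pore, stood at 967, 623, 718 and 851 CPM against 254 to 412 CPM (median 347) at E3.5 (log2 interaction -0.94, SE 0.24, adjusted p = 0.0278), and its call was lost in 5 alternatives. Phgdh, the first enzyme of serine synthesis, varied among E3.5 MUT embryos, at 749, 204, 511 and 155 CPM (log2 interaction -2.34, SE 0.56, adjusted p = 0.019), and lost its call in 5 alternatives as well.

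Naive pluripotency genes were called above 0 in 5 of 24 and below in 0, with a median of 0.54. Dppa5a, an RNA-binding protein of pluripotent cells, stood at 2045 to 2469 CPM (median 2218) and 1091, 1922, 1961 and 1287 CPM at E3.5 and at 2962 to 4971 CPM (median 4513) and 9548 and 7279 CPM at E4.5 (log2 interaction 1.46, SE 0.25, adjusted p = 0.0018). Tet2, which oxidises methylcytosine, reversed, from 122 to 275 CPM (median 154) and 25.2, 96.1, 62.2 and 36.3 CPM to 18.6 to 99.9 CPM (median 37.8) and 167 and 123 CPM (log2 interaction 3.27, SE 0.69, adjusted p = 0.00849). Tdgf1, the Nodal co-receptor Cripto, was nearly absent from E3.5 MUT embryos, at 0.142, 1.4, 1.76 and 0 CPM against 29 to 344 CPM (median 99.9). In E4.5 MUT embryos it reached 401 and 52.3 CPM against 325 to 1492 CPM (median 1107) in control, and so its positive interaction of 4.88 (SE 1.07, adjusted p = 0.0106) is a smaller deficit and not an excess. Tfcp2l1 (log2 interaction 2.15, SE 0.50, adjusted p = 0.0149) and Nr5a2 (log2 interaction 4.02, SE 1.13, adjusted p = 0.0417) were the other two, and Nanog (log2 interaction 1.36, SE 0.51, adjusted p = 0.134) and Klf4 (log2 interaction 0.08, SE 0.58, adjusted p = 1) were not called. Without embryo 3 the list had 2 calls. The Tdgf1 call was lost without embryo 3, with WT controls only and with cells weighted equally.

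The 79 genes outside the definitions had a median of 8.11 log2 CPM in E3.5 control embryos, above those of the other classes. Cct6a, a subunit of the cytosolic chaperonin, stood at 964 to 1175 CPM (median 1100.5) in E4.5 control and 636 and 594 CPM in MUT embryos (log2 interaction -0.89, SE 0.18, adjusted p = 0.00739). Anp32b, a histone chaperone, stood at 505 to 612 CPM (median 595) and 356 and 288 CPM (log2 interaction -1.02, SE 0.20, adjusted p = 0.00492). Tyms, thymidylate synthase, stood at 170.4 to 241 CPM (median 194) and 88.4 and 108 CPM (log2 interaction -1.64, SE 0.30, adjusted p = 0.00279). Dimt1, which methylates ribosomal RNA, stood at 62 to 129 CPM (median 79) and 46.5 and 48.9 CPM (log2 interaction -1.56, SE 0.31, adjusted p = 0.00592). At E4.5 all 4 were below every control in both MUT embryos. The groups were apart at E4.5 in 68 of the 79 genes and in 21.8% of all genes tested. Anp32b was not called without embryo 8 or with WT controls only, and Cct6a not against PrE alone or with WT controls only.

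**Figure D5:**
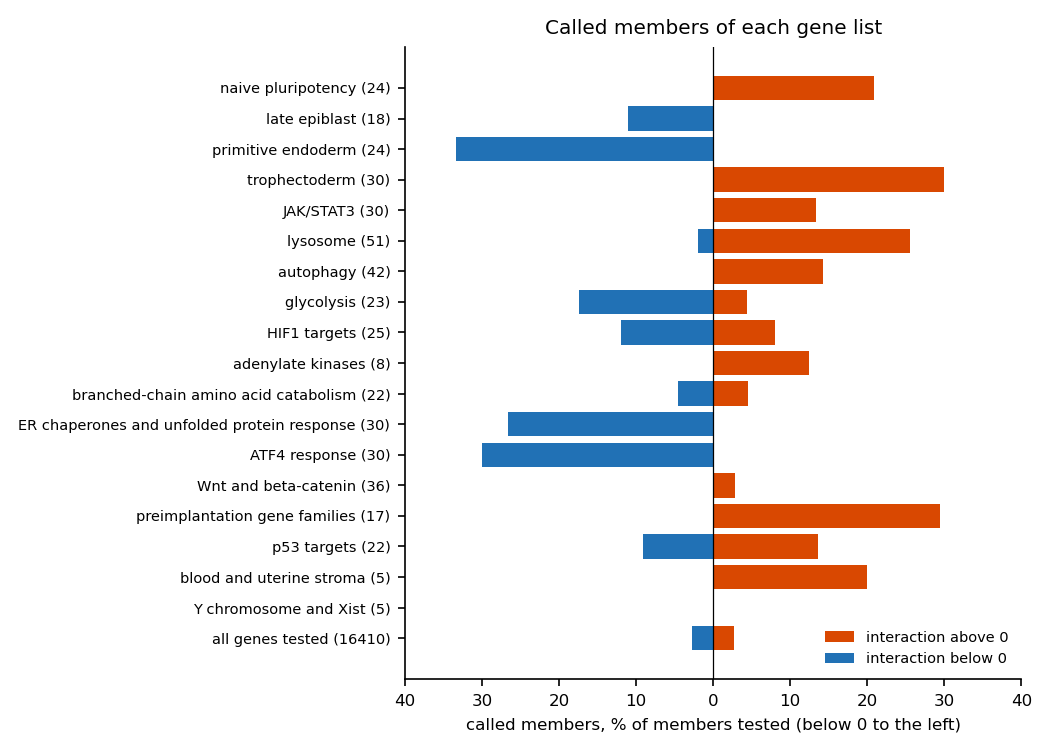
Percentage of the tested members of each list (number in brackets) whose interaction was called above 0 (right) or below 0 (left), with all 16410 genes in the last line. The trophectoderm, preimplantation and lysosome lists extend to the right, and the primitive endoderm, ATF4 and ER chaperone lists to the left.

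Remaining lists had few called genes. HIF1 targets gave 2 above (Ak4, Slc2a1) and 3 below 0 (Pgk1, P4ha1, Mif) of 25, branched-chain amino acid catabolism 1 below (Bcat1) of 22, and adenylate kinases 1 of 8 (Ak4). Among p53 targets 3 of 22 (Perp, Psrc1, Sesn1) were above and 2 (Aen, Gtse1) below 0, but without embryo 3 it was 1 above and 0 below, and the list median turned from 0.54 to -0.82. Against controls of WT embryos alone HIF1 targets had 4 calls above 0 and 0 below. When embryo 3 was left out, their list median went from 0.46 to 0.24. Psrc1, a spindle protein, was called at 3.25 (SE 0.89, adjusted p = 0.0372) and lost its call in 13 alternatives, and Aen, a nuclease, was called at -2.62 (SE 0.62, adjusted p = 0.0176) and lost it in 4. Of Xist and 4 Y-linked genes edgeR called 0, with 0 at an unadjusted p under 0.05, and DESeq2 and the limma fit also called 0. On the X chromosome 30 of 576 genes were called, or 5.21%.

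Because the E4.5 control mixes lineages, the interaction was refitted with only its EPI cells (821 of 15781 genes called, 5.2%) or only its PrE cells (774 of 15338, 5.05%). Of 14882 genes tested in both, 313 were called in both, 307 of them in 1 direction, and 306 of these 307 were also called against the whole ICM. The 2 fits share the MUT and the E3.5 embryos. By class, 68 of 159 genes kept on in MUT, 36 of 99 gained late, 90 of 258 lost late and 65 of 166 reversed were called against both lineages, but 15 of 78 not gained in MUT. Tmem41b, Csf3r, Pramel4, Psap and Perp were among the genes called against both. Tmem41b was at 3.42 (adjusted p = 3.14e-07) against EPI and 3.22 (adjusted p = 6.44e-06) against PrE, and Csf3r at 8.06 (adjusted p = 5.39e-06) and 7.91 (adjusted p = 7.65e-06).

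The 19 E4.5 MUT cells differed in how many held each gene. At 10 CPM or more per cell, Tmem41b, Gm2a and Psap were found in 19 of 19, Lcp1 in 18, Pramel6 in 15, Dppa1 in 13, Perp in 12, Csf3r in 8, Pramel4 in 7 and Hand1 in 6. Pramel4 and Csf3r shared 4 cells, Csf3r and Hand1 2, and Pramel6 and Perp 11. Counting Pramel4, Csf3r, Pramel6, Dppa1, Hand1 and Perp, no cell held all 6 or 0 of them, and 6 cells held 3. Hand1 was at that level in 5 of 11 cells of embryo 3 and 1 of 8 cells of embryo 8. These cells come from 2 embryos, and the shares are a description.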

How the data were processed

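Single ICM cells of E3.5 and E4.5 blastocysts were profiled by Smart-seq2 with 125-bp read pairs. The authors aligned reads with STAR to mm10 and counted pairs per gene with HTSeq, and they deposited raw counts of 49671 genes, 1 table per cell. HTSeq's lines for reads in no gene (4.72% of all pairs), in several genes (8.65%) and with several alignments (32.3%) were left out of sums and tests. Groups and genotypes came from the labels. The embryo of each cell came from the study's sample table, matched by title. Gene names and positions came from an annotation of GRCm38, which matched 49412 identifiers.

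Counts were summed per embryo and fitted in edgeR 4.0.16 (R 4.3.3, limma 3.58.1) with TMM scaling, filterByExpr and a quasi-likelihood F test of the interaction over 4 groups, with Benjamini-Hochberg adjustment over all 16410 genes tested. Log2 values used a prior count of 2. Adjusted p are two-sided and from this test unless the text names the permutation test or a fit against EPI or PrE alone. Those were adjusted over their own measures or genes. All adjusted p rest on 19 embryos, of which 2 were E4.5 MUT. The steps were tested on simulated data. Totals per embryo, from 8117581 to 24589672 counts, set the precision.

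Named genes were the 8 proposed examples, the 5 with the smallest adjusted p of each class at a mean of 10 CPM or more, up to 3 called members of each of 18 lists, 5 genes called against both EPI and PrE, and Pou5f1. Other list members named were chosen after their values were seen, and some called members are not reported here. The lists were those for naive pluripotency, late epiblast, PrE, TE, JAK/STAT3, lysosome, autophagy, glycolysis, HIF1 targets, adenylate kinases, branched-chain amino acid catabolism, ER chaperones, the ATF4 response, Wnt, preimplantation families, p53 targets, blood and uterine stroma, and the Y chromosome with Xist. Members and lists were chosen with earlier results of these data known. Folds are ratios of mean CPM, or bounds at 3 counts over the group where a group had 0.

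Alternatives were DESeq2 1.42.0, its size factors, no filter or a mean of 10 CPM, a fit with cells weighted equally in limma, cells under 0.5 of the median depth left out, WT controls only, WT and HET as separate groups, EPI or PrE cells only as E4.5 control, both weighted equally, a 1.5-fold class threshold, and leaving out each embryo. The fit with cells weighted equally took the mean log2 CPM of the cells of an embryo, without TMM scaling. Cells at 0 entered it at the floor set by the prior count. Lost calls and turned signs under it cannot be put down to the weights alone.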

Additional observations from a re-analysis of the deposited data

Results flagged for a closer look

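The effect of genotype differed between E3.5 and E4.5, by a test of the interaction, in 896 genes. For the 8 example genes the log2 interaction was 3.32 for Tmem41b, 4.72 for Gm2a, 6.99 for Pramel4, 8.31 for Csf3r, 2.85 for Ak4, 2.89 for Btrc, -3.61 for Bcat1 and -2.93 for Hspa5.

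In 25 of 204 groups of named-gene values 1 embryo stood far from the others of its group. The rule is set to flag about 1 in 20 groups of normally spread values. Values near 0 are not so spread, and a group with a single embryo above 0 is always flagged. The number flagged is therefore no measure of an excess over chance. Control embryo 6 at E4.5 did so for Btrc (64.0 CPM), Khdc3 (722 CPM), Sh3bp4 (72.3 CPM), Cd68 (41.98 CPM) and Perp (0.359 CPM). Control embryo 2 at E4.5 stood out for Pramel4 (0.0477 CPM, a single count), Dppa5a (2962 CPM) and Pramel6 (2.01 CPM). Of the other E4.5 controls, embryo 1 stood out for Anp32b (505 CPM), embryo 4 for Hand1 (0.266 CPM) and embryo 5 for Myc (50.9 CPM). MUT embryo 10 at E3.5 stood out for Pramel4 (790.3 CPM), Slc24a5 (2.56 CPM) and Tyms (437 CPM). In the other E3.5 MUT embryos it was embryo 12 for Sh3bp4 (0.370 CPM) and Foxq1 (1.33 CPM), embryo 17 for Etv4 (0.0840 CPM) and embryo 19 for Cd68 (0.139 CPM). Among E3.5 controls it was embryo 11 for Slc24a5 (169 CPM), embryo 13 for Foxq1 (0.222 CPM), embryo 14 for Cd68 (10.4 CPM), embryo 15 for Gpc4 (9.75 CPM) and Dppa1 (116 CPM), and embryo 18 for Psat1 (644 CPM) and Pramel6 (881 CPM).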

How the results depend on the processing

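Of 69 named genes, 40 kept direction and call under all 30 alternatives, 27 lost the call under at least 1, and 4 turned. DESeq2 called 1816 genes (758 above and 1058 below 0), 874 of them among the 896, and equal weight of cells 1437 (725 and 712), 590 of them among the 896. WT embryos as the only controls gave 470 (272 and 198), 338 of them among the 896, with fewer embryos, and equal weight of EPI and PrE 446 (276 and 170), 397 of them among the 896. Against PrE alone 299 genes were called below 0. The share of calls above 0 was 62.7% against EPI alone, 61.4% against PrE alone, 61.9% with both weighted equally, 57.9% with WT controls and 37.2% without embryo 8. Leaving out each embryo gave 562 (without embryo 3) to 1015 (without embryo 1) calls, 253 (without embryo 3) to 516 (without embryo 1) above 0, with 283 without embryo 8, and 309 (without embryo 3) to 499 below 0. Of the 896, 407 remained without embryo 3 and 472 without embryo 8, each of which leaves 1 E4.5 MUT embryo that is assumed to vary like the other groups. The interaction turned to 3.07 for Col4a1 and 0.53 for P4ha1 against EPI alone, and to -2.06 for Hand1 and 0.51 for Pou5f1 with cells weighted equally. With a 1.5-fold class threshold 270 genes were reversed and 12 unsorted. Among the 896, differences against EPI alone put 18 in the class higher early, differences against PrE alone left 138 unsorted, and equal weight of cells gave 86 reversed, 26 higher early and 155 unsorted. Where no construction above shows it, the cause was not tested. The other alternatives kept counts within 1.5 times, with 709 calls of 24772 genes without a filter and 964 of 7789 at 10 CPM. No paired analysis was possible because the embryos carry no number that is shared between groups. Depth limits the genes with 0 counts in a group, and 2 MUT embryos limit every E4.5 value.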

Other observations

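Some gene families outside the lists above are given here by their counts. They were chosen after members were seen among the calls below 0, so the counts show nothing of how frequent such genes are, and 2.75% of all genes tested were called below 0. Of the 8 subunits of the CCT chaperonin, which folds actin and tubulin, 6 were called below 0 (Cct2, Cct3, Cct5, Cct6a, Cct7 and Tcp1) and all 8 had an interaction under 0, with a median of -0.85. Cct2 was at -1.21 (SE 0.21, adjusted p = 0.00186). Of 38 proteasome subunits 7 were called below 0 and 0 above, with a median of -0.59, led by Psmb7 at -1.42 (SE 0.19, adjusted p = 0.000204). Of 11 SR splicing factors 3 (Srsf2, Srsf3 and Srsf7) were called below 0, all 11 were under 0 and the median was -1.06. Of 20 cytosolic tRNA synthetases 5 were called below 0 and the median was -0.79, with Mars, the methionine enzyme, at -2.17 (SE 0.30, adjusted p = 0.000307).

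Nucleolar proteins that process ribosomal RNA had 5 of 26 called below 0 and a median of -0.56, with Utp20 at -3.43 (SE 0.59, adjusted p = 0.00201) and Nop58 at -1.99 (SE 0.39, adjusted p = 0.00536). The MCM helicase of DNA replication had 1 call in each direction, with Mcm2 called at -1.27 (SE 0.29, adjusted p = 0.0153) and Mcm6 at 1.06 (SE 0.27, adjusted p = 0.0263) and a median of -0.13 over 6. The V-ATPase, which acidifies the lysosome, had 1 of 18 subunits called, Atp6v0b at 1.03 (SE 0.29, adjusted p = 0.0393), and a median of 0.61.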
